A study of Nicotiana tabacum with 54 samples.

Results

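Stalk and leaf transcriptomes of tobacco (Nicotiana tabacum) were compared across all expressed genes in 36 of the 54 libraries of the series, 18 from stalk and 18 from leaf. Of the 69500 genes in the deposited tables, 39763 had at least 1 FPKM (fragments per kilobase of transcript, scaled to a common library size) in at least 3 of these libraries. Leaving out the 48 of them that belong to the 59 glutathione transferase genes listed by the study left 39715 genes. Another 29737 genes stayed below this level, 15022 of which were listed at 0 in all 36 libraries, and 23362 of the tested genes reached 1 FPKM in every library.

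The stalk and leaf groups each held 6 plant materials, which the labels name Hongda, HxB, Basma, Va116, VxG88 and GDH88, with 3 libraries per material and tissue. The study's text lists HG, GDH11 and VG beside Hongda, Va116 and GDH88 and does not use the names HxB, Basma and VxG88, so the labels' names are used here. All plants were sampled after topping (removal of the flower head) and no group received a treatment that another lacked. By the study's methods each biological replicate joined 3 plants grown alike, and root, stalk and leaf were taken from these plants. Libraries are numbered 1 to 3 here as their columns are, and these numbers could not be linked to the replicate letters in the sample labels.

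The stalk carries the vascular strands and the lignified supporting tissue of the plant and moves water, minerals and sugars between root and leaf. The leaf blade is made mostly of photosynthetic mesophyll, whose chloroplast proteins are encoded in large part by a small number of very abundant nuclear transcripts. Topping ends flowering and redirects growth and metabolism in the remaining shoot and in the root. Tobacco is an allotetraploid whose genome joins those of a pair of ancestral species, so many genes exist in near-identical copies, and reads shared between such copies could be split between them by the authors' counting. The files do not pair gene identifiers with names, and 0 identifiers matched the RefSeq gene table. The tissue labels could therefore not be checked against marker genes, and the results below are given by identifier, level and position in the annotation.

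The files hold FPKM and no read totals, so the depth of each library is unknown. The summed FPKM ranged from 768375 to 832327 in stalk and from 792647 to 823454 in leaf. Low values gave an approximate relative depth of 0.775 to 1.06 for the stalk libraries and 0.811 to 1.56 for the leaf libraries. The estimate takes low values as whole reads, which held only in part. Of the ratios between low values, 55.1% lay near a whole step, against 100% in simulated whole reads, so these depths are uncertain. No 2 of the 36 libraries held identical values. On log2(FPKM + 1), the first principal component held 64.9% of the variance and had all 18 stalk libraries on one side and all 18 leaf libraries on the other. The median correlation of a library with the others of its tissue was 0.863 to 0.932 in stalk and 0.892 to 0.940 in leaf, against 0.574 to 0.663 with those of the other tissue. Stalk library 3 of Hongda (0.863) and stalk library 2 of Va116 (0.870) stood apart from the other stalk libraries, which were at 0.900 or more. Several of the results below are given with and without one of them. Without stalk library 2 of Va116, 16174 genes were called higher and 13396 lower in stalk in the test described next. Without stalk library 3 of Hongda, 15951 were called higher and 13600 lower. The SD between the 3 libraries of a group had a median over genes of 0.363 in stalk and 0.346 in leaf on the log2 scale.

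Most of the expressed genes differed between stalk and leaf. In limma's test with material as a covariate, 16134 genes (40.6% of those tested) were higher in stalk and 13548 (34.1%) were lower, at an adjusted p (Benjamini-Hochberg over 39763 genes, two-sided) under 0.05. The 48 glutathione transferase genes stayed in the fit and its adjustment and were left out of the counts. The genes higher and lower in stalk together made 29682 genes, or 74.7%, and 30305 genes had an unadjusted p under 0.05. Genes higher in stalk made up 54.4% of the called genes, but 49.9% after scaling by the median of ratios, so which direction held more genes depended on the scaling. In whole-tissue samples, a transcript made by fewer cells cannot be told apart from one made at a lower level in each cell.

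Most of the differences were small. The called genes had a median log2 fold change (stalk over leaf) of 0.80 among those higher in stalk and of -0.99 among those lower. Of the genes higher in stalk, 60.7% changed by less than 1 on the log2 scale, and 50.3% of those lower did. The counts past a log2 fold change of 1 were 6333 higher and 6728 lower, and past 2 they were 2359 higher and 3073 lower. Past 5 they were 214 higher and 228 lower. The remaining 10033 genes were not called, and the 95% interval of the difference lay within 1 log2 unit of 0 for 9237 of them (92.1%). For 796 of them the interval reached beyond 1, so the missing call does not show that their difference was smaller than that.

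**Figure D1:**
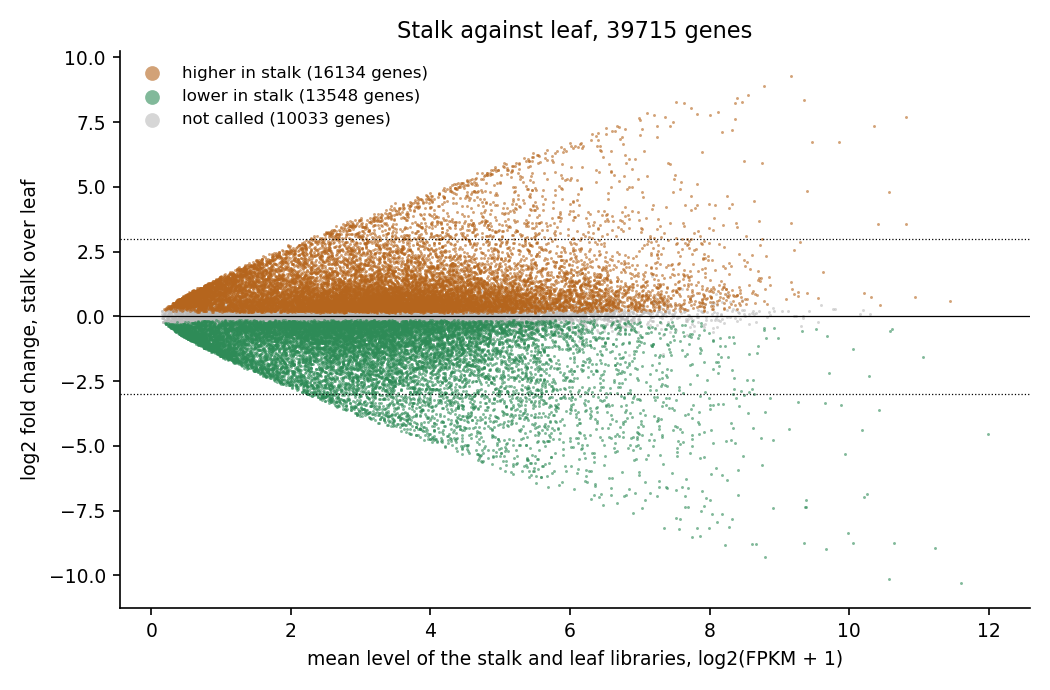
Log2 fold change (stalk over leaf) of 39715 genes against their mean level, with the 16134 genes called higher in stalk, the 13548 called lower and the 10033 not called in separate colours and dotted lines at 3 and -3. Called genes lie on both sides at every level, and the widest differences, up to 9.27 and down to -10.28, lie among abundant genes, since the added 1 FPKM limits the ratio of low genes.

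A log2 fold change of 3 or more separated 1050 genes higher in stalk (2.64% of those tested) and 1399 genes lower in stalk (3.52%). The genes higher in stalk had a median of 44.0 FPKM in stalk and 0.819 FPKM in leaf. The genes lower in stalk had a median of 1.30 FPKM in stalk and 43.3 FPKM in leaf. At a mean of 100 FPKM or more, 8.97% of 1382 genes were higher in stalk and 15.0% were lower by this margin, and at a mean of 10 to 100 FPKM the shares of 14251 genes were 4.93% and 6.25%. The shares were 1.13% and 1.52% of 19811 genes at a mean of 1 to 10 FPKM and 0 under 1 FPKM, where the added 1 FPKM keeps many or all genes from reaching 3. The share of genes called at any size moved much less with level, with 73.0% at 1 to 10 FPKM and 80% at 100 FPKM or more. The counts past 3 depended on the pseudocount. With 0.1 FPKM in place of 1 they were 2455 higher and 3253 lower, and with 0.01 FPKM they were 3384 and 4191, since a smaller pseudocount shrinks the ratios of low genes less.

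These genes carried a larger part of the leaf transcriptome than of the stalk transcriptome. The 1050 genes higher in stalk held between 9.76% and 16.6% of the summed FPKM of a stalk library (median 13.7%) and between 0.433% and 0.894% of a leaf library (median 0.519%). The 1399 genes lower in stalk held between 0.590% and 1.51% of a stalk library (median 0.856%) and between 15.9% and 27.9% of a leaf library (median 22.7%). Since the genes were chosen by this contrast, the separation of the tissues is a description. Stalk library 3 of Hongda had the lowest share of the stalk genes at 9.76%, below the next at 11.6%, and a share of the leaf genes of 1.28%, second to that of stalk library 1 of Va116 at 1.51%. Without stalk library 3 of Hongda, 1084 genes were higher and 1413 lower by this margin.

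**Figure D2:**
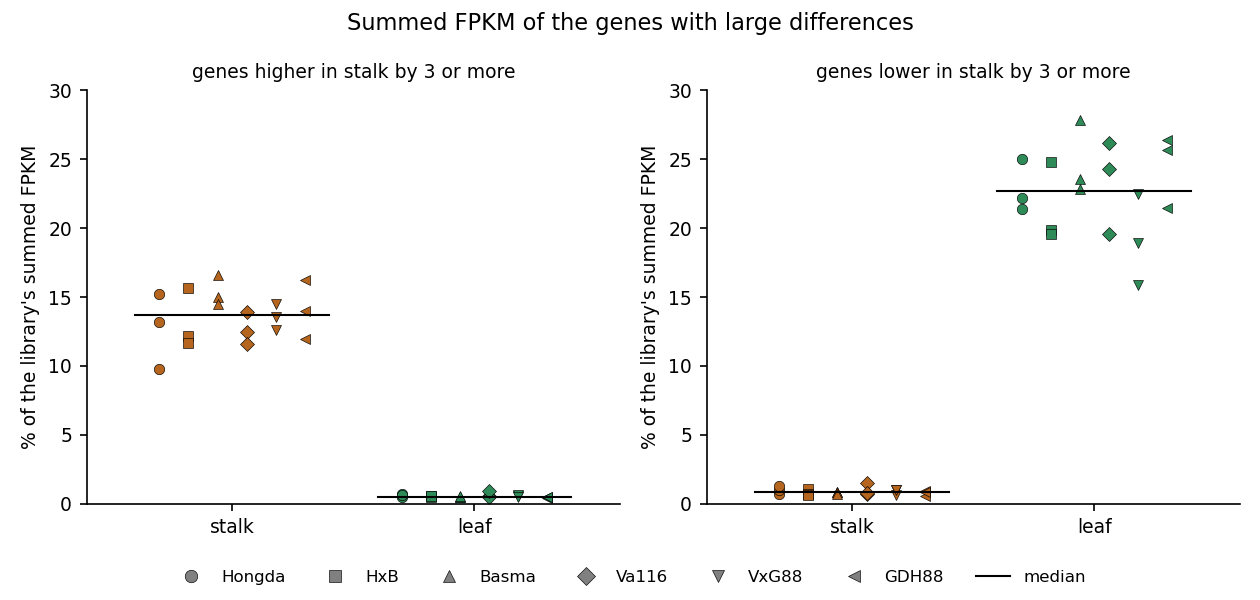
Percent of each library's summed FPKM held by the 1050 genes higher in stalk (left panel) and the 1399 genes lower in stalk (right panel) by a log2 fold change of 3 or more, with stalk left of leaf, a symbol per material and a line at the median. The medians are 13.7% in stalk and 0.519% in leaf for the first set, and 0.856% in stalk and 22.7% in leaf for the second.

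Over all sizes of change, the 16134 genes higher in stalk held a median of 64.8% of the FPKM in stalk libraries and 26.4% in leaf libraries. The 13548 genes lower in stalk held 13.1% in stalk libraries and 51.8% in leaf libraries. The genes not called held 21.5% in stalk and 21.3% in leaf.

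The most abundant transcripts took a smaller part of the stalk libraries than of the leaf libraries. The 10 highest genes of a library held 3.41% ± 0.637 of its FPKM in stalk and 5.19% ± 0.831 in leaf (SD, n = 18 each), a difference of -1.78 percentage points. Stalk libraries ranged from 2.10% to 4.48% and leaf libraries from 4.04% to 7.40%, so that the groups overlapped in part. The 100 highest genes held 12.6% ± 1.24 in stalk and 15.8% ± 1.48 in leaf. Both differences had the same direction in 6 of 6 materials, with an adjusted p of 2e-05 in a two-sided permutation test within materials (100000 resamples, adjusted over 4 measures). The unadjusted p of both, 1e-05, is the smallest that these permutations can give. The number of genes that together held 50% of the FPKM was 1884 ± 156 in stalk and 1783 ± 221 in leaf. That difference, 101 genes, did not pass the permutation test (adjusted p = 0.106, the same direction in 4 of 6 materials), though it did without leaf library 3 of HxB (122 genes, adjusted p = 0.0457).

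**Figure D3:**
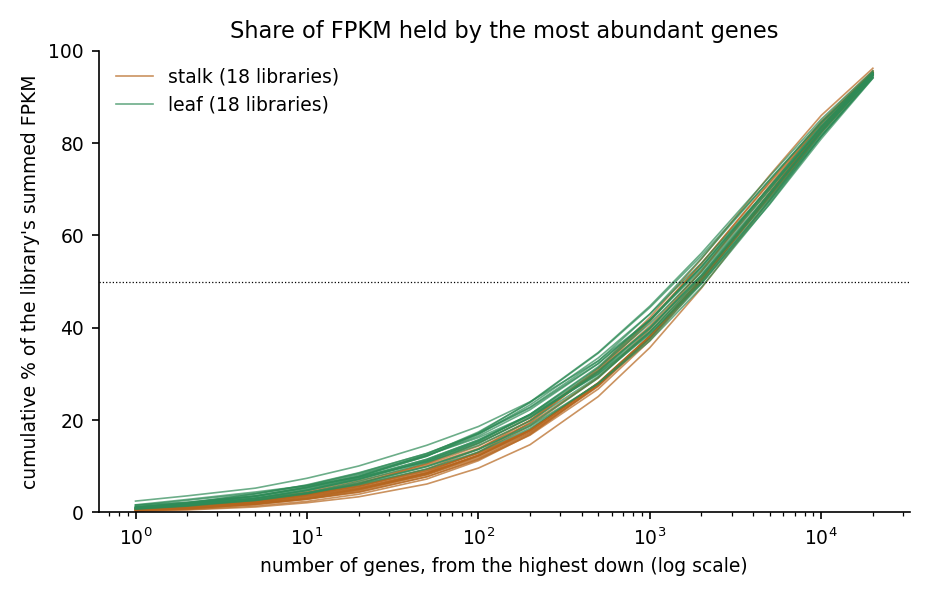
Cumulative percent of a library's summed FPKM against the number of genes counted from the most abundant down, on a log axis, with a line for each of 18 stalk and 18 leaf libraries. At 10 genes the stalk libraries lie between 2.10% and 4.48% and the leaf libraries between 4.04% and 7.40%, and the curves run together where 50% is reached.

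The identity of the abundant genes also differed. The 10 genes with the highest mean in stalk and the 10 with the highest mean in leaf had 1 gene in common and the 100 highest had 28 in common. Of the 1000 highest in each tissue, 45.7% were the same genes. All 10 of the stalk list were called higher in stalk, 6 of them by a log2 fold change of 3 or more, and their leaf means had a median of 275 FPKM. Of the leaf list, 9 were called lower in stalk and 8 of them by 3 or more, and their stalk means had a median of 21.3 FPKM. The tenth leaf gene was called higher in stalk. The most abundant gene averaged 3580 FPKM in stalk, and the most abundant of leaf averaged 7785 FPKM. Among the 100 highest genes of stalk, 75 were called higher in stalk, 8 lower and 17 were not called. Among the 100 highest of leaf, 80 were called lower in stalk, 6 higher and 14 were not called. Both lists were ranked on the same libraries as the contrast, which favours calls towards their own tissue, so these counts are a description. Over all tested genes, 40.6% were called higher in stalk and 34.1% lower.

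Slightly fewer genes were detected in stalk than in leaf. The number of genes at 1 FPKM or more, counted outside the glutathione transferases, was 32409 ± 526 in stalk and 32821 ± 431 in leaf (SD, n = 18 each). The difference of -412 genes had an adjusted p of 0.0149 in the permutation test within materials and the same direction in 6 of 6 materials. It no longer passed the permutation test when genes were counted from 5 FPKM (-258 genes, adjusted p = 0.296), and without stalk library 2 of Va116, which had the fewest genes (30961), it was -327 genes (adjusted p = 0.0266). It lost the call without the libraries numbered 2, without those numbered 3 or without HxB. The approximate relative depth reached higher values in leaf, as given above, and its part in this difference was not tested.

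The ranges of all 18 stalk and all 18 leaf libraries did not overlap for 7496 genes. Of these, 3391 genes (8.54% of those tested) had every stalk library above every leaf library, and 4105 genes (10.3%) had every stalk library below every leaf library. Without stalk library 3 of Hongda the counts were 3755 and 4305, and without stalk library 2 of Va116 they were 3699 and 4156.

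The largest differences were held by 4 genes, whose products the files do not name. Nitab4.5_0001259g0020 had between 44.4 and 1878 FPKM in stalk (median 1065) and between 0.09 and 2.18 FPKM in leaf (median 0.435). Every stalk library was above every leaf library, and the lowest stalk value, in library 3 of Hongda, lay far below the next, which was 397 FPKM. The gene averaged 1143 ± 500 FPKM in stalk and 0.589 ± 0.524 FPKM in leaf (SD, n = 18 each). Its log2 fold change was 9.27 (SE 0.30, limma adjusted p = 4.9e-23), and 9.54 without that library. Within materials it ran from 8.30 in Hongda to 10.01 in VxG88. In the 18 root libraries the gene had a median of 64.3 FPKM, between its levels in stalk and leaf.

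Nitab4.5_0007150g0030 had between 117.7 and 1587 FPKM in stalk (median 845) and between 0 and 3.98 FPKM in leaf (median 0.655). Again no stalk library came near the leaf range, and library 3 of Hongda was the lowest of the stalk libraries, below the next at 382 FPKM. Its mean was 874 ± 362 FPKM in stalk and 0.808 ± 0.990 FPKM in leaf (SD, n = 18 each). The log2 fold change was 8.89 (SE 0.23, limma adjusted p = 1.47e-25), and 9.04 without that library, and the values within materials lay between 8.25 in Va116 and 9.37 in GDH88. The highest leaf value of both genes was in leaf library 3 of Va116. The root median of this gene was 26.5 FPKM.

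Nitab4.5_0003771g0010 had between 0.37 and 51.0 FPKM in stalk (median 2.20) and between 1724 and 20210 FPKM in leaf (median 4528). The groups were far apart, yet the gene varied widely within each of them. The stalk maximum was in library 3 of Hongda, followed by 23.5 FPKM and then by 5.96 FPKM, and the leaf maximum was in leaf library 3 of Hongda. The mean was 6.27 ± 12.3 FPKM in stalk and 6172 ± 4599 FPKM in leaf (SD, n = 18 each). The log2 fold change was -10.28 (SE 0.33, limma adjusted p = 3.34e-23), with -9.29 in Va116 and -10.84 in Basma at the ends of the range over materials. Without stalk library 3 of Hongda it was -10.46. Root libraries ran from 2.18 to 2650 FPKM, with a median of 35.2 FPKM.

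Nitab4.5_0000037g0350 had between 0.5 and 3.95 FPKM in stalk (median 0.965) and between 786 and 6652 FPKM in leaf (median 2805). This gene was low in every stalk library, stalk library 3 of Hongda included. Its mean was 1.5 ± 1.09 FPKM in stalk and 3036 ± 1572 FPKM in leaf (SD, n = 18 each). The log2 fold change was -10.15 (SE 0.20, limma adjusted p = 1.11e-28), and the values within materials ran from -11.56 in Hongda to -9.46 in VxG88. The root median was 2.69 FPKM, so this gene was low in both of the other tissues. None of the 4 genes passed limma's interaction test among materials (adjusted p = 1.0 for each), which does not show that their differences were alike, since that test has little power and the values above differ by up to 2.10 between materials. Each of the 4 was called in all 6 materials, and a shared direction in all 6 was a condition of their choice.

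**Figure D4:**
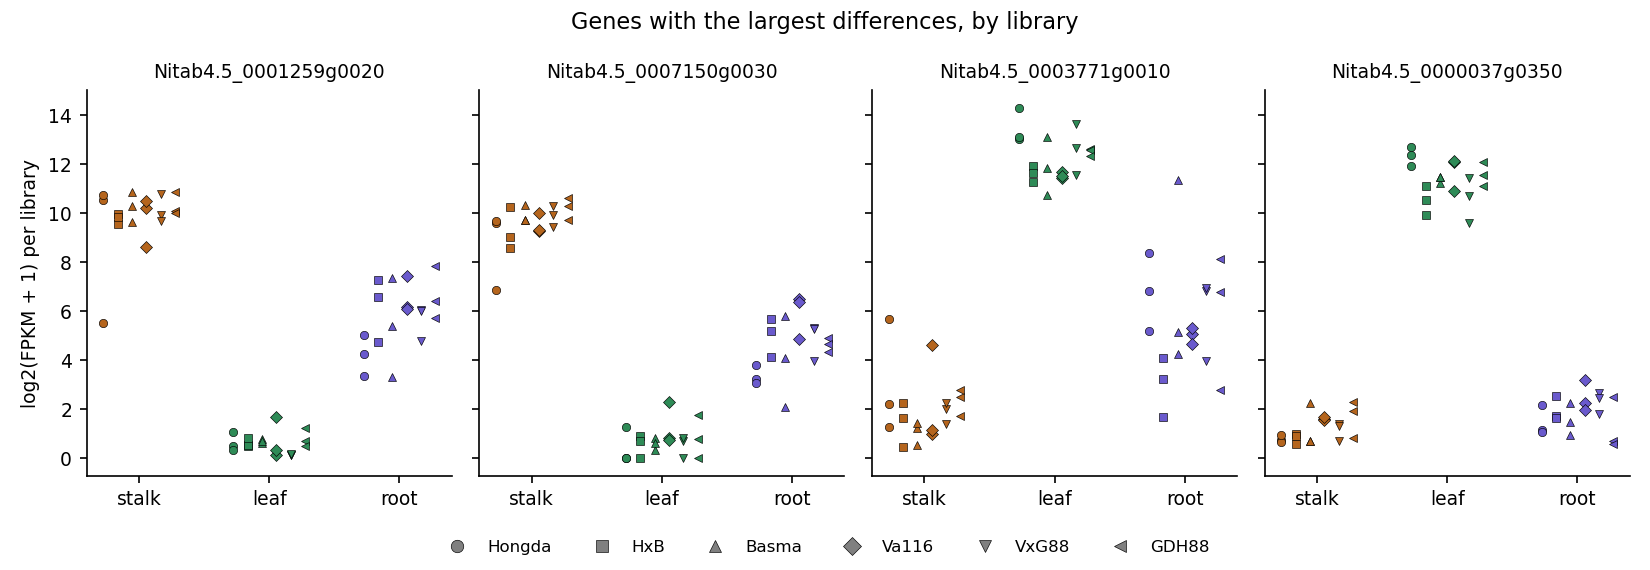
Levels on log2(FPKM + 1) of the 4 genes named by the 2 largest differences in each direction. The 18 stalk, 18 leaf and 18 root libraries are side by side, with a symbol per material. Stalk and leaf libraries do not overlap for any of the 4 genes, and library 3 of Hongda is the lowest stalk library for the first 2 genes (44.4 and 117.7 FPKM) and the highest for the third (51.0 FPKM).

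The 20 largest differences in each direction showed the same separation. The 20 genes highest in stalk over leaf had log2 fold changes from 7.59 to 9.27, with means of 252 to 3580 FPKM in stalk and 0.0372 to 17.0 FPKM in leaf. The 20 genes lowest in stalk relative to leaf ran from -7.95 to -10.28, with means of 0.0428 to 30.4 FPKM in stalk and 322 to 6172 FPKM in leaf. Stalk and leaf libraries did not overlap for any of the 40 genes. Over all tested genes, 8.54% lay wholly higher and 10.3% wholly lower in stalk. The 40 genes were chosen by their difference in the same libraries, which favours such a separation, so this is a description. Stalk library 3 of Hongda was the lowest stalk library for 15 of the 20 genes higher in stalk and the highest for 5 of the 20 genes lower in stalk.

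In this annotation, the number before the letter g in an identifier gives the scaffold and the number after it the order of genes along that scaffold. Scaffold 0000037, which carries Nitab4.5_0000037g0350, had 21 tested genes, of which 15 were called lower in stalk and 2 higher. Over all tested genes, 34.1% were called lower and 40.6% higher. Of the 21 genes, 8 were lower in stalk by a log2 fold change of 3 or more, against 3.52% of all tested genes. On this scaffold 6 genes were lower by 5 or more, and 3 of the 10 largest falls over all genes lay there. No other scaffold had more than 4 genes lower by 3 or more. The 8 genes together held between 0.0133% and 0.0874% of the FPKM of a stalk library (median 0.0420%) and between 1.12% and 2.38% of that of a leaf library (median 1.64%). The stalk library with the highest share was library 3 of Hongda, next to another at 0.0812%, and the median of the root libraries was 0.209%. On the stalk side, scaffold 0000263 had the most genes higher by 3 or more, with 6 of 22 tested genes, against 2.64% of all tested genes. Both scaffolds were picked as those with the highest counts over all scaffolds, and their counts were not tested.

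Over all scaffolds there were 21255 pairs of tested genes with consecutive positions, and both genes of 11892 pairs were called. Of these, 52.5% had the same direction, against 50.4% expected from the shares of higher and lower genes. Among the genes past a log2 fold change of 3 that had a neighbour tested, 59 of 828 higher in stalk (7.13%) and 94 of 1059 lower in stalk (8.88%) had a neighbour of their own set. Of the other genes with a tested neighbour, 3.73% had one among the genes higher by 3 and 4.59% among those lower by 3. These shares were not tested.

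Few genes were restricted to one of the tissues. On the mean of 18 libraries, 30243 of the tested genes (76.2%) reached 1 FPKM in both stalk and leaf, 3439 (8.66%) in stalk only and 3511 (8.84%) in leaf only. The stricter definition asked for at least 1 FPKM in all 18 libraries of one tissue and less than 0.1 FPKM in all 18 of the other. By this, 69 genes were restricted to stalk (0.174% of those tested) and 165 to leaf (0.415%). No test was made of these counts.

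The 69 stalk-restricted genes were of modest abundance. Their means in stalk ran from 2.10 to 86.7 FPKM with a median of 9.52 FPKM, and 31 of them averaged 10 FPKM or more. In leaf, 33 of the 69 were listed at 0 in all 18 libraries and the highest value of any was 0.09 FPKM. In root, 31 of the 69 (44.9%) averaged 1 FPKM or more and 12 (17.4%) stayed under 0.1 FPKM in all 18 libraries, against 83.9% and 1.59% of all tested genes, and 9 had a higher mean in root than in stalk. Their summed level ran from 745 to 1995 FPKM over the stalk libraries (median 1244), with library 3 of Hongda the lowest and library 2 of Hongda the highest. Library 3 of Hongda was also the lowest library for 21 of the 69 genes, against 9 for the next. Without it 89 genes met the definition, without the material Hongda 109, and without all libraries numbered 3 there were 131.

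The 165 leaf-restricted genes had means in leaf of 1.52 to 88.3 FPKM with a median of 7.47 FPKM, and 62 averaged 10 FPKM or more. In stalk, 66 of the 165 were listed at 0 in all 18 libraries. In root, 41 (24.8%) averaged 1 FPKM or more, 55 (33.3%) stayed under 0.1 FPKM in all 18 libraries and 11 had a higher mean than in leaf. Their summed level ran from 1530 to 2897 FPKM over the leaf libraries (median 2108). Both counts of restricted genes depended on the limits chosen. A limit of 0.5 FPKM in the other tissue gave 321 genes for stalk and 493 for leaf, while a listing at 0 in that tissue gave 33 and 66. Asking for 5 FPKM in all 18 libraries of the tissue gave 11 and 41, and a mean of 1 FPKM there gave 334 and 477.

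Root levels, which played no part in the choice of genes, lay differently for the large differences in each direction. Of the 1050 genes higher in stalk by 3 or more, the root mean lay between stalk and leaf for 895 (85.2%), above both for 115 (11%) and below both for 38 (3.62%). Of the 1399 genes lower in stalk by 3 or more, it lay between the tissues for 626 (44.7%), above both for 72 (5.15%) and below both for 690 (49.3%). Over all tested genes these shares were 36.4%, 24.0% and 39.1%. Most tested genes differed far less between stalk and leaf. A wide difference leaves more room for a root mean between the tissues, so the shares over all genes are not a matched comparison. The median root mean was 7.82 FPKM for the genes higher in stalk and 1.57 FPKM for those lower. Root values are given beside the contrast and were not tested here.

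The difference between stalk and leaf was much alike in the 6 materials. With 3 stalk against 3 leaf libraries in each, limma called 15647 genes in Hongda (39.4%), 16172 in HxB (40.7%), 17309 in Basma (43.6%), 15403 in Va116 (38.8%), 15016 in VxG88 (37.8%) and 17707 in GDH88 (44.6%). Basma had 9756 genes higher in stalk and 7553 lower, and GDH88 had 9602 higher and 8105 lower. The other 4 materials had between 7428 and 7939 higher and between 7571 and 8233 lower. Leaving out the libraries with one column number left 2 against 2 in a material, and the count of Hongda was then as low as 9942. Without its stalk library 3 alone, Hongda had 15239 called genes, and Va116 had 14127 without its stalk library 2.

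**Figure D5:**
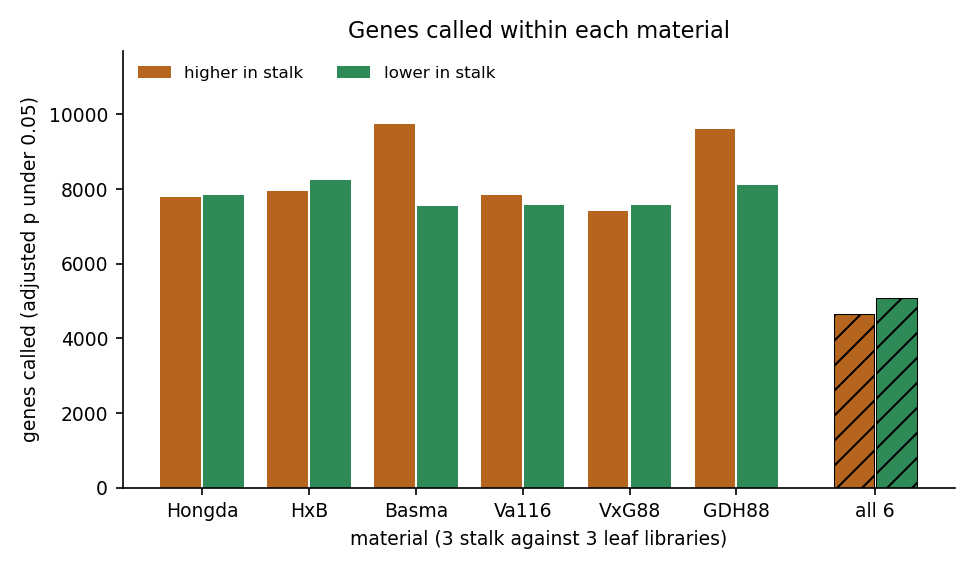
Number of genes called higher (left bar) and lower (right bar) in stalk within each material, from 3 stalk and 3 leaf libraries each, with the hatched bars for genes called the same way in all 6 materials. Basma and GDH88 have the most genes higher in stalk, 9756 and 9602, and the genes called in all 6 number 4647 higher and 5094 lower.

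In all 6 materials 4647 genes were called higher in stalk (11.7%) and 5094 were called lower (12.8%), 9741 genes in all, and 5713 without the libraries numbered 2. Without stalk library 3 of Hongda the count in all was 9674, and without stalk library 2 of Va116 it was 9498. A further 5995 genes passed the test over the 36 libraries without passing in any single material. The fold change had the same sign in all 6 materials for 26942 of the 29682 called genes (90.8%) and for 70.3% of all tested genes. Of the 2449 genes past a log2 fold change of 3, 2447 kept their sign in all 6 materials and 2303 (94.0%) were called in each. Only 18 of the tested genes were called higher in stalk in one material and lower in another. Across the 39715 genes, the correlation of log2 fold changes between materials, which share no libraries, ran over 15 pairs from 0.905 (Hongda and Va116) to 0.969 (Basma and GDH88) with a median of 0.938. Genes are not independent replicates, and these correlations are a description. So are the shares of the called genes and of the genes past 3. Both sets were chosen on the same 36 libraries, which favours a shared sign and a call in each material.

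The size of the difference varied among materials for 97 genes (0.244%) in limma's interaction test at an adjusted p under 0.05, and 1242 genes had an unadjusted p under 0.05. Of the 97 genes, 94 were also called over all materials, 62 kept their sign in all 6 and 3 were called in opposite directions in different materials. Their log2 fold changes spanned a median range of 2.15 over the materials, against 0.67 over all tested genes. They were low genes in most cases, with a median of 1.69 FPKM against 7.0 FPKM over all tested genes, and 14 averaged 10 FPKM or more. The test had little power and the count was unstable, with 13 genes when at least 1 FPKM in 18 libraries was asked for, 54 with a pseudocount of 0.01, 30 with a block for the column numbers and 12 to 44 when the libraries with one column number were left out.

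Many of the 97 genes were all but unexpressed in some material. For 43 of them (44.3%) at least 1 material was under 0.5 FPKM in all 3 stalk and all 3 leaf libraries, against 3.52% of all tested genes. That material was Hongda for 25 genes, Va116 for 19, HxB, Basma and GDH88 for 15 each and VxG88 for 8. A gene can count under several materials. A gene so low in a material has a fold change near 0 there, which favours a call in the interaction test where it differs elsewhere. The widest spread belonged to a gene of scaffold 0000681, called lower in stalk. It had 0 to 0.03 FPKM in stalk and 0.05 to 3.56 FPKM in leaf in Hongda, while in the other 5 materials no stalk library exceeded 3.71 FPKM and no leaf library was below 268 FPKM. Its log2 fold change was -0.78 in Hongda and between -7.88 and -8.66 elsewhere (limma interaction, adjusted p = 4.85e-07). A second gene of the same scaffold had a log2 fold change of -0.46 in Hongda, with 0.83 FPKM at most in its leaf libraries, and between -6.80 and -7.82 elsewhere. Of the 11 tested genes on this scaffold, 6 were under 0.5 FPKM in all 6 stalk and leaf libraries of Hongda, and 3 were among the 97.

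Another gene, on scaffold 0000697, was at or under 0.17 FPKM in every stalk library, and its leaf level set the materials apart. Its leaf libraries had 659 to 729 FPKM in Hongda, 136 to 213 FPKM in HxB and 101 to 528 FPKM in VxG88. They had 32.5 to 289 FPKM in Va116, 6.41 to 13.6 FPKM in GDH88 and 1.62 to 6.05 FPKM in Basma. The log2 fold change was accordingly -9.43 in Hongda and -2.11 in Basma (limma interaction, adjusted p = 9.82e-07). Among the 97 genes, Basma and GDH88 stood together more often than any other set of materials. When the 6 log2 fold changes of a gene were placed in order, the largest gap set these 2 apart from the other 4 for 28 of the 97 genes, and Hongda alone apart for 14. The gap was not counted over all tested genes, where Basma and GDH88 also had the most correlated fold changes (0.969). Whether the 97 genes differ from the rest in this was not tested. Of the 97 genes, 19 shared a scaffold with another of them, on 8 scaffolds. The count to be expected from as many tested genes was not worked out, so this does not show that they cluster.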

How the data were processed

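Total RNA of stalk, leaf and root was sequenced as paired ends on Illumina instruments per the labels. The authors' processing notes name HISAT2, StringTie and RSEM, with versions and genome build not given in the sources used here. FPKM values were what the authors deposited, as 1 table per tissue with 2 decimals. The unit rests on the study's figure legend, and the even sums would also fit TPM. Columns were assigned to groups by the material and tissue that their names state.

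For the comparison of stalk with leaf, a linear model of log2(FPKM + 1) on tissue and material was fitted in limma 3.58.1 (R 4.3.3), with a variance trend. Genes entered it if 3 or more of the 36 libraries had 1 FPKM or more. A model with 1 mean per group gave the contrasts within materials and the interaction test. A gene was called at an adjusted p under 0.05. The fold changes are on the log2(FPKM + 1) scale, which understates those of low genes. Library measures were tested by permutation within materials in Python 3.11.15. Since the deposited values have 2 decimals and no counts, relative depth was estimated from 1683 sparse genes. Of 6739 ratios between low values, 55.1% lay within 0.1 of a whole step, against 20% for an even spread and 100% in simulated whole reads, so no counts were derived.

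Tested on simulated data of 39763 genes, the stalk and leaf fit recovered 85% of genes with an imposed log2 change of 1 and 49% at 0.5. It made 9 false calls among the unchanged genes. Within Hongda it found 25% at 1 and 66% at 2, and among materials 4% at 1 and 43% at 2. Each change was imposed on 100 genes, all above a mean of 2 on the log2 scale. In the data 74.7% of genes were called in the stalk and leaf fit. The adjustment was therefore stricter in the simulation, and its recovery does not give that of the data. Genes were named by a rule that takes the 2 largest log2 fold changes in each direction among genes called and changed the same way in all 6 materials. The comparison, the lists and this rule were chosen with earlier results of these data known. Genes described without an identifier were picked after their values were seen. Alternatives covered pseudocounts, filters, scalings, the trend, a block for column numbers, all 54 libraries, no material term, each column number and each material left out, other limits for restricted genes and, added after the data had been seen, each library left out.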

Additional observations from a re-analysis of the deposited data

Results flagged for a closer look

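The difference between stalk and leaf itself differed among the 6 materials for 97 genes by limma's interaction test. With a block for the column numbers the count was 30. The widest case was the gene on scaffold 0000681 with a log2 fold change of -0.78 in Hongda and between -7.88 and -8.66 in the other 5 materials. Stalk library 1 of Va116 bears on the count, which was 137 without it, and stalk library 3 of Hongda less, with 87 without it.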

How the results depend on the processing

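Of 346 values from the alternatives other than single libraries left out, 318 kept their direction and call or stayed within 1.5 times the value reported. The only value to change sign was the difference in the number of genes holding 50% of the FPKM, which was not called and was -0.333 without column number 1. The counts of genes higher and lower in stalk ranged from 13466 to 17880 and from 11158 to 15348 over all alternatives, single libraries left out included. The log2 fold changes of the 4 named genes kept their call in every alternative and lay between 9.06 and 11.11, 8.75 and 11.57, -10.90 and -9.88, and -11.09 and -9.86. The counts past a log2 fold change of 3 were 2455 higher and 3253 lower with a pseudocount of 0.1, and 3384 and 4191 with 0.01. The genes that varied among materials numbered 54 with a pseudocount of 0.01, 13 when at least 1 FPKM in 18 libraries was asked for, and 12 to 137 over the fits that left out libraries. The genes called in Hongda ranged from 9942 to 16045 in such fits, and those called the same way in all 6 materials from 5713 to 9674. For the number of genes at 1 FPKM or more, the difference was -258.3 at a threshold of 5 FPKM (adjusted p = 0.296), -385.3 without the material HxB (adjusted p = 0.0517), and -601.9 to -304.9 over left-out libraries, where the permutation test lost the call without column numbers 2 or 3. The difference in the number of genes holding 50% of the FPKM ranged from -0.333 to 170.2 over left-out libraries and passed only without leaf library 3 of HxB. Stalk-restricted and leaf-restricted genes numbered 321 and 493 with a limit of 0.5 FPKM in the other tissue, 33 and 66 with a listing at 0, 11 and 41 with 5 FPKM in all libraries of the tissue, and 334 and 477 with a mean of 1 FPKM. Stalk-restricted genes numbered 109 without the material Hongda and 69 to 131 over left-out libraries. Except where the change follows from the construction of the alternative, the cause was not tested.

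A block for the column numbers within materials gave 16507 genes higher and 13808 lower in stalk, and 30 genes in place of 97 that varied among materials. The study's methods describe stalk and leaf taken from the same plants of a replicate. No source ties the column numbers to those replicates. The deviations of stalk and leaf libraries with the same number correlated above 0.1 in 15 of 18 cases, with a range of -0.159 to 0.439. In 14 of 18 cases they correlated best with the one of their own number, a hint from the data that numbers pair libraries in part. Across materials, same-numbered stalk libraries correlated at -0.0222 on average and same-numbered leaf libraries at 0.351. Since 3 of the 18 correlations were not above 0.1, it is not known that equal numbers mark the same plants. The fit without the block was kept, while libraries paired by number would call for the fit with it. The total depth is unknown, and near-identical gene copies limit what a single identifier shows.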
